A study of Sus scrofa with 36 samples.

Results

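The genes described here encode proteins of the mitochondrial ribosome. They were taken as all genes of the normalised RNA-Seq table whose symbol starts with MRPL or MRPS followed by a number, where the symbol comes from the Ensembl pig gene identifier. There were 43 such genes among 12253, of which 29 carried an MRPL and 14 an MRPS name. Of the identifiers in the table, 8320 (67.9%) had a symbol and 3933 had none. A further 22 symbols of the same kind in the naming table had no row among the analysed genes and were not analysed here. The rule used names and no measured value.

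The samples were subcutaneous adipose tissue from 36 pigs of an F2 cross between Göttingen minipig boars and Duroc sows. The pigs were grouped by a genetic index of obesity into Low (lean), Mean (intermediate) and High (obese) groups of 12 pigs each, with no other treatment. There were 7 males and 5 females in the Low group, and 6 of each sex in the Mean and in the High group. Each pig gave 1 library and is 1 biological replicate. The pigs were slaughtered at a similar weight, so that leaner pigs were older, and age and obesity group cannot be told apart. The labels do not give the sibships or the sequencing lanes of single pigs. The paper limited the number of full sibs in a group, so some pigs can be related, while the fits took all pigs as independent.

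Mitochondria keep a ribosome of their own, which translates the few mRNAs of the mitochondrial genome into core subunits of the respiratory chain and the ATP synthase. All of its proteins are encoded in the nucleus, made in the cytosol and imported. Some descend from proteins of the bacterial ribosome, and others were added during the evolution of mitochondria. In fat, mitochondria support fatty acid oxidation and lipid synthesis in adipocytes.

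By subunit, 30 of the 43 genes encode proteins of the large and 13 of the small subunit. MRPS18A counts here with the large subunit, where its protein resides in spite of its name. Proteins with a bacterial counterpart made up 24 of the set and mitochondria-specific ones 19.

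Between 8735839 and 11755925 reads per pig were recovered from the table, with a median of 10496910. These are the reads counted in the 12253 genes of the table and not the full depth of sequencing. Levels are given as normalised read counts, that is, the reads recovered for a gene over the size factor of its library, and differences as log2 differences from limma with group and sex as terms. Adjusted p-values are Benjamini-Hochberg values over all 12253 genes, with 0.05 as threshold. Adipocyte markers were well represented in the tissue. PLIN1, which coats the lipid droplet, had from 11354 to 30608 normalised counts in the 36 pigs, and all 4 adipocyte markers with a row were detected in every pig. In bulk tissue, fewer cells of a type and less RNA per cell cannot be told apart.

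The 43 genes were expressed at moderate levels that varied little between pigs. Their mean normalised count ran from 43.9 for MRPL22 to 798 for MRPS10, with a median of 284, against a median of 242 over all genes. MRPL9 and MRPL28 followed MRPS10 as the genes with the most reads, and MRPS18A and MRPL47 stood just above MRPL22 at the other end. Transcript lengths were not used, so these values give depth and not an order of transcript abundance. The SD left after the group and sex terms had a median of 0.21 on the log2 scale (range 0.14 to 0.39), against 0.32 over all genes. It lay below the median of all genes for 40 of the 43 genes. Counting error alone gives an SD of 0.05 to 0.22 at these depths, with a median of 0.09.

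MRPS34, MRPL24 and MRPL38 varied least, with an SD of 0.14 to 0.15. MRPS34 is a mitochondria-specific protein of the small subunit. Its normalised count was between 411 and 614 in the Low pigs (median 508), between 420 and 570 in the Mean pigs (median 469) and between 432 and 551 in the High pigs (median 471). The 3 ranges overlapped almost fully.

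MRPS6, MRPS27 and MRPL47 varied most, with an SD of 0.33 to 0.39. MRPS6, the counterpart of bacterial S6, ran from 276 to 796 counts in the Mean pigs alone. MRPS27 belongs to the pentatricopeptide repeat family of RNA-binding proteins, and MRPL47 is the counterpart of bacterial L29. The lowest value of MRPL47 was 59.4 counts in a Mean pig, and its highest was 256 in a Low pig. That is a 4.31-fold span, the widest of the set, while the median span over the 43 genes was 1.98-fold. The low end of the MRPL47 span rests on 1 Mean pig, as the next lowest value was 105 in a Low pig.

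The first question was whether the mitochondrial ribosome differed between obese and lean pigs. No gene of the set passed the threshold between High and Low pigs. The differences were small and fell on both sides of 0. They were above 0 for 17 genes and below 0 for 26, where 48.9% of all genes lay below 0. The median difference was -0.02 on the log2 scale, with a range from -0.22 to 0.15, against 0.00 over all genes.

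In limma 0 of the 43 genes passed at an adjusted p of 0.05, and 0 passed with voom weights. Over all genes 0.0735% passed, which is 9 genes. At an unadjusted p under 0.05 there was 1 of the 43, against 15.7% of all genes. The 95% interval of the difference had a median half-width of 0.18, and for all 43 genes it lay within 0.5 of 0 on the log2 scale. For 20 of them it lay within 0.25 of 0.

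**Figure D1:**
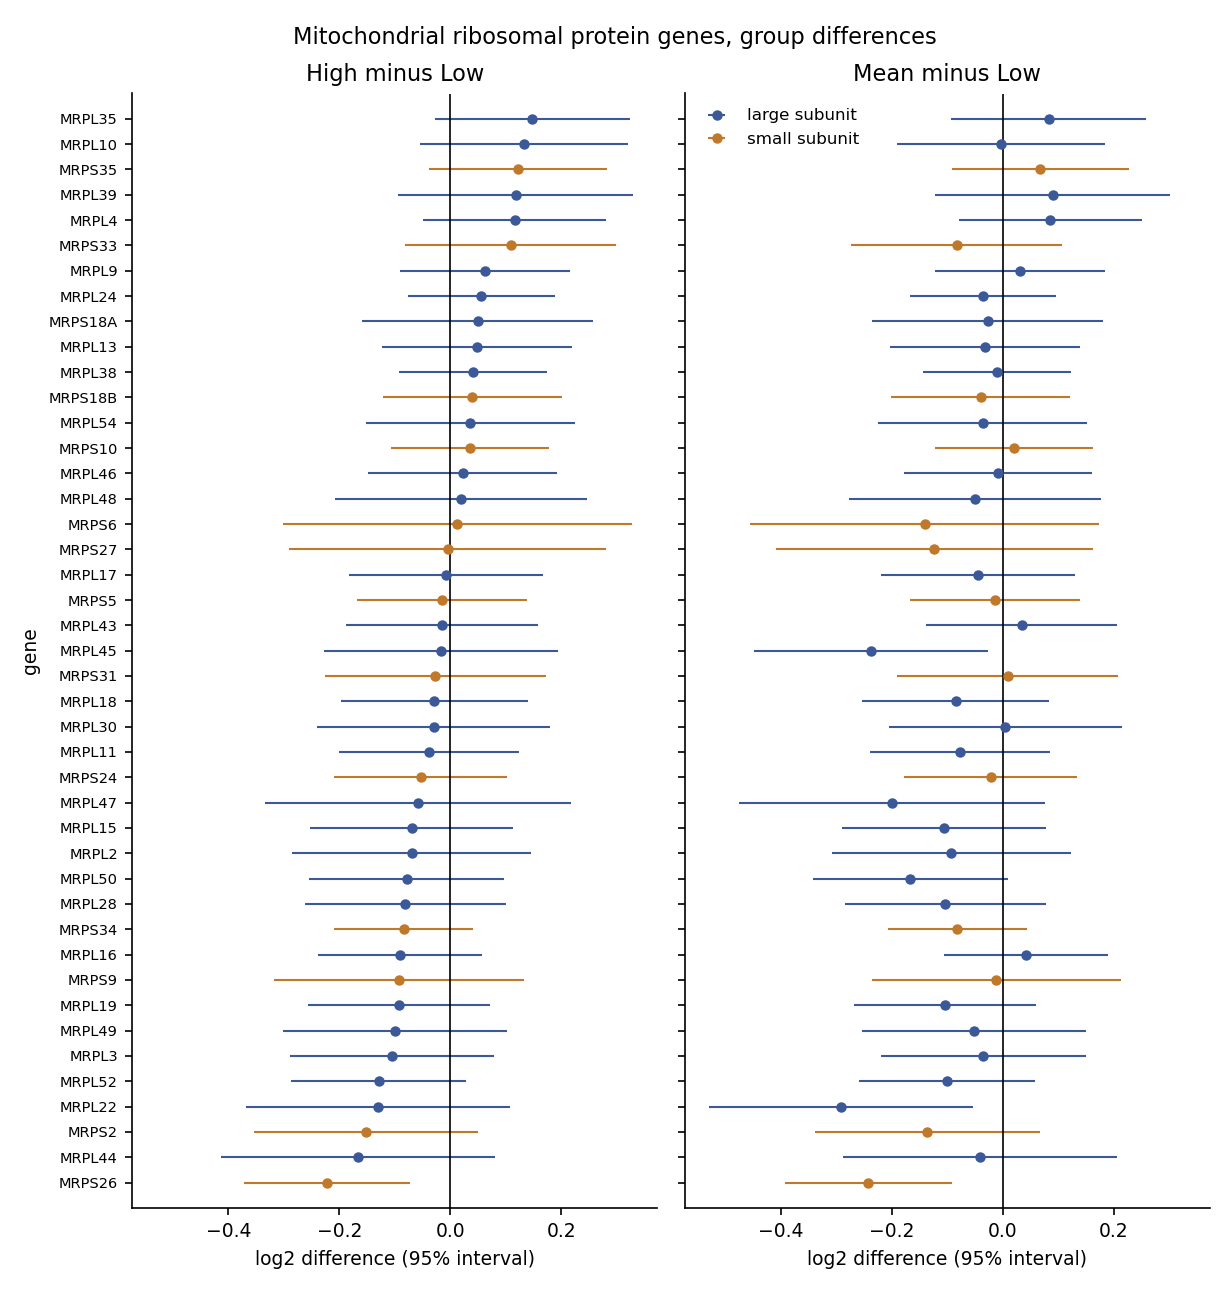
Log2 difference of High from Low pigs (left) and of Mean from Low pigs (right) for the 43 genes, from limma with group and sex as terms, on a common horizontal axis. Points are estimates and bars 95% intervals, genes are ordered by the High minus Low value, and colours give the subunit. MRPS26, at the bottom, is the single gene whose interval excludes 0 on the left, and MRPS26, MRPL22 and MRPL45 are those whose interval excludes 0 on the right.

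MRPS26 (ENSSSCG00000007165), a mitochondria-specific protein of the small subunit, stood lowest in this comparison. Its normalised count was 380 to 502 in the Low pigs (median 444), 257 to 433 in the Mean pigs (median 383) and 327 to 426 in the High pigs (median 376). The ranges overlapped, but none of the 12 Mean and none of the 12 High pigs reached the median of the Low pigs. High pigs were 0.22 lower than Low pigs on the log2 scale (SE 0.07), with an adjusted p of 0.125 in limma. Mean pigs were 0.24 lower than Low pigs (SE 0.07, adjusted p = 0.237). Neither difference passed, and in the test for any difference between the 3 groups its adjusted p was 0.178. With each pig left out in turn the High minus Low difference stayed between -0.24 and -0.20, and the adjusted p reached 0.0853 at its lowest.

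The genes next to MRPS26 had differences well within the threshold. MRPL35, the counterpart of bacterial L35, had the highest estimate. Its normalised count was 249 to 492 in the Low pigs (median 321) and 306 to 504 in the High pigs (median 364), and 10 of the 12 High pigs were above the Low median. Its difference was 0.15 (SE 0.09, adjusted p = 0.416).

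MRPL52 (difference -0.13), MRPL44 (-0.17) and MRPS2 (-0.15) had lower estimates in High pigs. MRPL44 carries a fold of the RNase III family, and mutations in it cause infantile cardiomyopathy in humans. Its values ran from 168 to 371 counts in the Low pigs and from 178 to 326 in the High pigs, so the High range lay within the Low range. MRPS2 ran from 172 to 347 in the Low pigs and from 230 to 281 in the High pigs. The 12 High pigs were less spread for this gene, and all were below the Low median of 304. The adjusted p was 0.434 for MRPL52, 0.534 for MRPL44 and 0.481 for MRPS2.

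MRPS35, MRPL10, MRPL4 and MRPS33 had estimates of 0.12, 0.13, 0.12 and 0.11 in the other direction, with adjusted p-values from 0.471 to 0.613. With each pig left out in turn these estimates ran from 0.07 to 0.15, 0.09 to 0.18, 0.08 to 0.15 and 0.07 to 0.15, respectively. MRPL10 anchors the stalk to which translation factors bind, and MRPL4 lines the tunnel through which the new peptide leaves. MRPS34 (-0.08), MRPL16 (-0.09) and MRPL3 (-0.10) complete the 12 genes with the smallest p. MRPL3 is another gene of the large subunit known from inherited cardiomyopathy. The folds of these 12 genes, High over Low, lay between 0.857 and 1.11.

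Large and small subunit were alike in these counts. The median difference was -0.02 over the 30 genes of the large subunit, with 12 above 0, and -0.01 over the 13 of the small subunit, with 5 above 0. The 24 genes with a bacterial counterpart had a median of -0.03 and the 19 mitochondria-specific ones -0.00. The genes vary together from pig to pig, as described further on, so such counts of genes are not counts of independent results.

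The intermediate pigs share the Low pigs as reference with the comparison above. In Mean against Low, 33 of the 43 genes had a difference below 0, where 49.5% of all genes did, and the median was -0.04. None of the genes passed in limma or with voom weights, as did 0% of all genes. At an unadjusted p under 0.05 there were 3, against 13.4% of all genes. Besides MRPS26 these were MRPL22 and MRPL45.

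MRPL22 (ENSSSCG00000017065), which lines the exit tunnel, had the fewest reads of the set, from 25 upwards. Its normalised count was 35.5 to 60.1 in the Low pigs (median 46.5), 27.2 to 66.2 in the Mean pigs (median 37.3) and 36.0 to 54.8 in the High pigs (median 43.4). The Mean pigs thus held both the lowest and the highest value. The Mean minus Low difference was -0.29 (SE 0.12, adjusted p = 0.297).

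MRPL45 sits where the peptide leaves the ribosome and ties it to the inner membrane. It had 152 to 307 counts in the Low pigs (median 245), 146 to 241 in the Mean pigs (median 193) and 166 to 278 in the High pigs (median 234). All 12 Mean pigs were below the Low median, while 3 High pigs were above it. Mean pigs differed from Low pigs by -0.24 (SE 0.10, adjusted p = 0.320), and High pigs from Mean pigs by 0.22 (SE 0.10, adjusted p = 0.932).

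MRPL50, a mitochondria-specific protein of the large subunit, came next in Mean against Low with -0.17 (SE 0.09, adjusted p = 0.405).

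High against Mean gave 30 of 43 genes above 0, where 51% of all genes were, with a median of 0.03. None passed, as did 0% of all genes, and 0 passed with voom weights. At an unadjusted p under 0.05 there were 2, against 5.01% of all genes, namely MRPL45 and MRPS33. MRPS33, of the small subunit, had 181 to 320 counts in the Mean pigs (median 254) and 217 to 327 in the High pigs (median 287). The ranges overlapped, and the difference was 0.19 (SE 0.09, adjusted p = 0.932). MRPL16, which lies close to the tRNAs on the large subunit, had a difference of -0.13 (adjusted p = 0.932). Across the 3 groups together 0 of the 43 genes passed in limma, as with voom weights, and 1 had an unadjusted p under 0.05, where 0.00816% and 13.9% of all genes did.

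**Figure D2:**
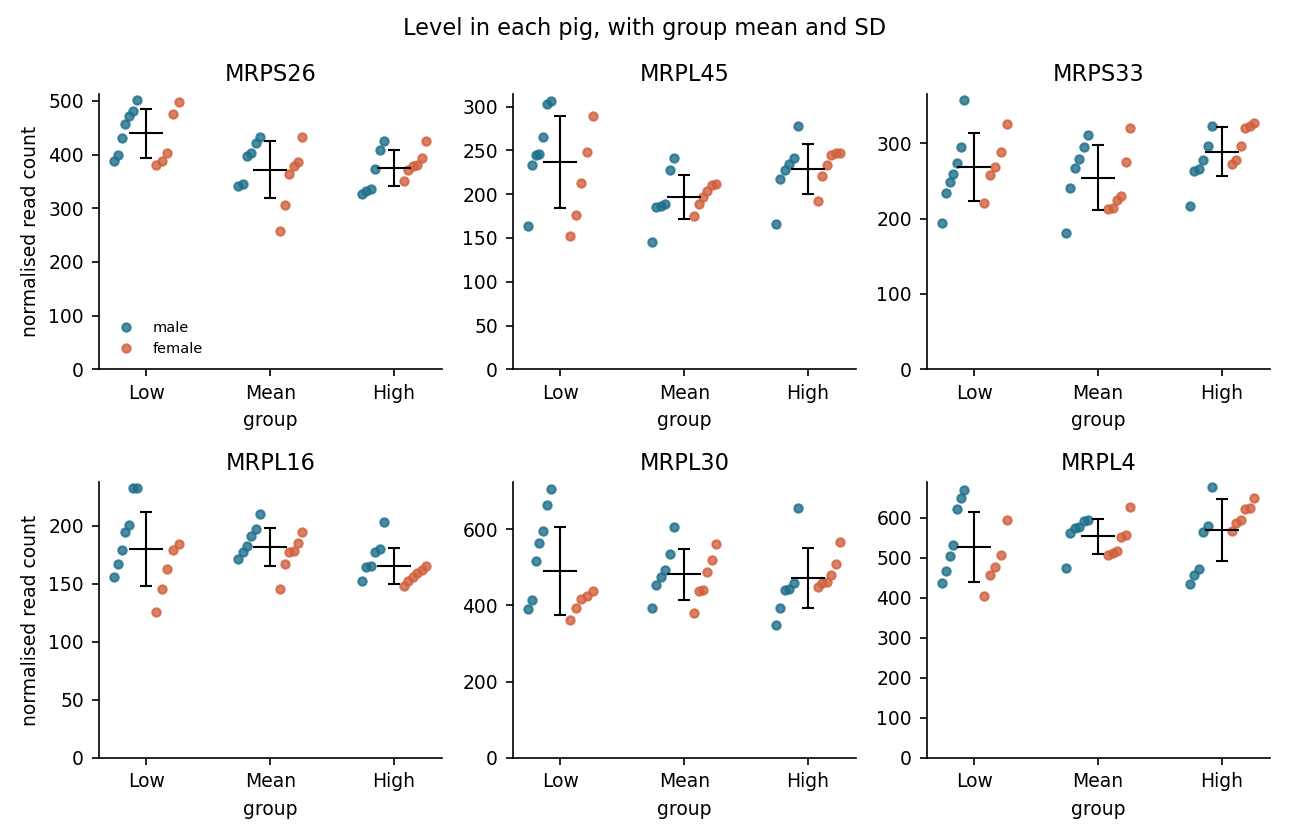
Normalised read count of 6 genes in each pig, by group, on axes that start at 0. Points are pigs, blue for males and orange for females, spread sideways for legibility, and black bars give the group mean and SD (n = 12). The groups overlap in every panel, and in the panel of MRPS26 no Mean or High pig reaches the Low median of 444.

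Sex is the other label of the pigs. Between males and females, 2.72% of all genes passed in limma and none of the 43 did, also with voom weights. The differences were above 0 (higher in males) for 28 of the 43, where 50.4% of all genes were, with a median of 0.04. At an unadjusted p under 0.05 there were 5 of the 43, against 19.4% of all genes. Among the cell type markers, 3 genes passed in this comparison. All 4 adipocyte markers were below 0 (lower in males, median -0.32), with LIPE, the hormone-sensitive lipase, at -0.54 (SE 0.11, adjusted p = 0.00832). All 4 fibroblast or progenitor markers were above 0 (median 0.64), with the matrix proteoglycan DCN at 0.63 (SE 0.15, adjusted p = 0.0164). All 5 macrophage markers were below 0 (median -0.30, 0 passed), as were both T or NK cell markers (median -0.90), of which CD2 passed at -1.06 (SE 0.30, adjusted p = 0.0492). Their part in the male minus female values of the mitoribosomal genes was not tested.

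MRPL16 came closest to the threshold. Its count was 152 to 233 in the 19 males (median 180) and 126 to 194 in the 17 females (median 163), and 17 of the males were above the female median. The difference was 0.18 (SE 0.06), with an adjusted p of 0.0913. The ranges overlapped over most of their length.

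MRPS35, MRPS27 and MRPL18 were likewise higher in males by estimate, with 0.16, 0.28 and 0.15 and adjusted p-values of 0.164, 0.179 and 0.230. MRPS27 had 196 to 559 counts in males (median 372) and 209 to 459 in females (median 294). MRPL18 belongs to the central protuberance of the large subunit. MRPS18A was the gene with the lowest estimate in males, with 63.6 to 119 counts in males (median 90.4) and 82.4 to 130 in females (median 102). Its difference was -0.17 (SE 0.08, adjusted p = 0.252). Its paralog MRPS18B, which belongs to the small subunit, ran from 189 to 357 counts over all pigs.

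The High minus Low difference was then taken in each sex. In males it was below 0 for 39 of the 43 genes, where 49.7% of all genes were, with a median of -0.09. In females it was above 0 for 32 of the 43, where 49% of all genes were, with a median of 0.10. None of the genes passed in either sex, where 0.00816% of all genes passed in males and 0.0245% in females. With each sex fitted alone 0 of the 43 passed as well, where 0.0163% of all genes passed in males and 0.482% in females. At an unadjusted p under 0.05 there were 4 genes in males, all below 0, against 13.3% of all genes, and 3 in females, all above 0, against 15.1%. The 4 in males were MRPS26, MRPL52, MRPL28 and MRPL30, and the 3 in females were MRPL4, MRPL24 and MRPL35.

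The difference between the sexes was tested with an interaction term, male minus female. It was below 0 for 42 of the 43 genes, where 49.6% of all genes were, and the exception was MRPL15 at 0.01. The median was -0.19, against 0.00 over all genes. None of the 43 passed, as did 0% of all genes and none of the 43 with voom weights, and the lowest adjusted p was 0.327. At an unadjusted p under 0.05 there were 6 of the 43, all of the large subunit, against 11.9% of all genes. On the values as deposited, which keep part of the depth of each library, the interaction of all genes shifted to a median of 0.09, with 39.6% below 0. There the 43 genes had a median of -0.11, with 36 below 0 and 1 above the median of all genes, and 1 had an unadjusted p under 0.05, against 12.9% of all genes.

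MRPL30, the counterpart of bacterial L30, had the lowest interaction, -0.53 (SE 0.19, adjusted p = 0.327). Its count in males was 391 to 706 in the Low group (median 565) and 347 to 656 in the High group (median 441). In females it was 363 to 438 in the Low group (median 416) and 447 to 567 in the High group (median 471). The female groups did not overlap for this gene, with every High female above every Low female, while the male groups overlapped broadly.

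MRPL4 had 405 to 595 counts in Low females (median 478) and 567 to 650 in High females (median 608), and 1 Low female lay within the High range. In males it had 437 to 671 in the Low group and 434 to 676 in the High group, which is nearly the same range. The interaction was -0.39 (SE 0.15, adjusted p = 0.333). MRPL24 and MRPL28 had interactions of -0.32 and -0.43 with adjusted p-values of 0.327 and 0.333. For MRPL28 the High males had 502 to 695 counts (median 580) and the Low males 587 to 813 (median 709). MRPL43 and MRPL54, with -0.35 and -0.38, complete the 6.

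**Figure D3:**
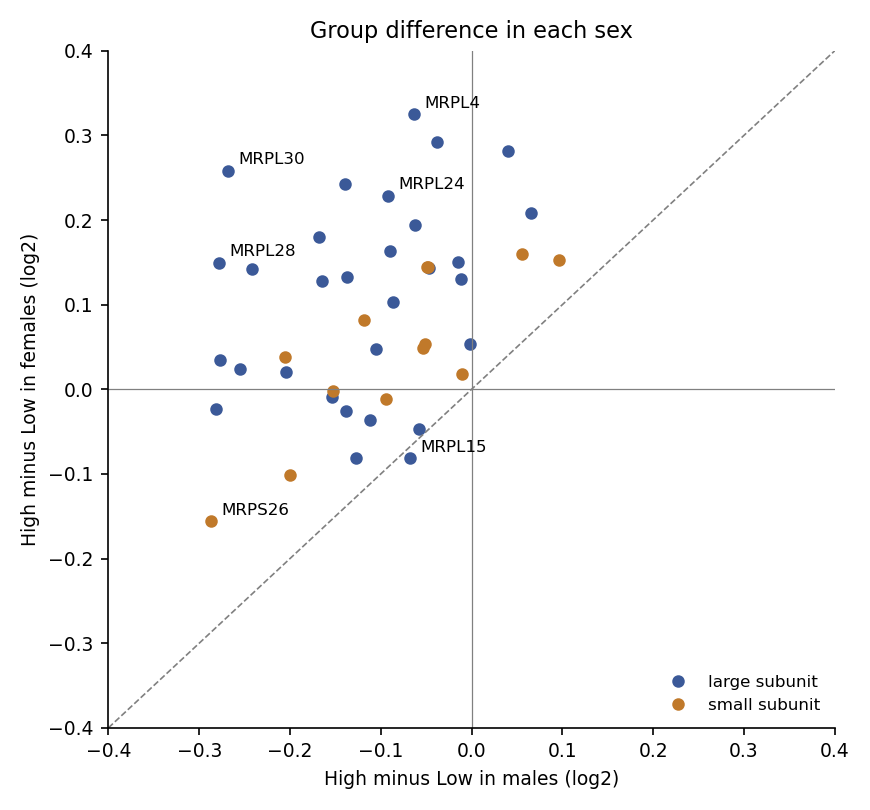
Log2 difference of High from Low pigs in males (horizontal axis) and in females (vertical axis) for each of the 43 genes, coloured by subunit. The dashed line marks equal differences in both sexes, and 42 of the 43 genes lie above it, with MRPL15 just below.

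The mean of the 43 genes per pig, with each gene centred on the log2 scale over the 36 pigs, shows which pigs lie behind these numbers. It was 0.03 ± 0.17 (SD, n = 12) in the Low, -0.03 ± 0.08 in the Mean and 0.01 ± 0.11 in the High pigs. Low males stood at 0.08 ± 0.19 (n = 7) and Low females at -0.05 ± 0.09 (n = 5). High males stood at -0.03 ± 0.14 and High females at 0.04 ± 0.06 (n = 6 each). The groups overlapped in each sex.

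The Low males held both the lowest and the highest value. Male 2 of the Low group was the lowest of all pigs at -0.27, with 4 of its 43 genes above their own mean. Males 5, 10 and 4 of the same group lay between 0.23 and 0.25, with 38 to 40 genes above their mean. The High group had 1 male as high, number 8 at 0.23. With each pig left out in turn, 4 to 10 of the 43 genes had an unadjusted p under 0.05 in the interaction, where 8.25% to 16.3% of all genes did. The 10 were reached without Low male 2 (16.2% of all genes) and without High male 8 (16.3%), and 0 genes passed in either case. The 4 were reached without Low male 4 (9.88%), 5 (9.77%) or 10 (11.3%) and without Low female 12 (10.4%). They were also reached without High female 2 (9.18%) or High male 12 (11.3%). The median interaction lay between -0.24 and -0.16 over all pigs left out in turn.

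**Figure D4:**
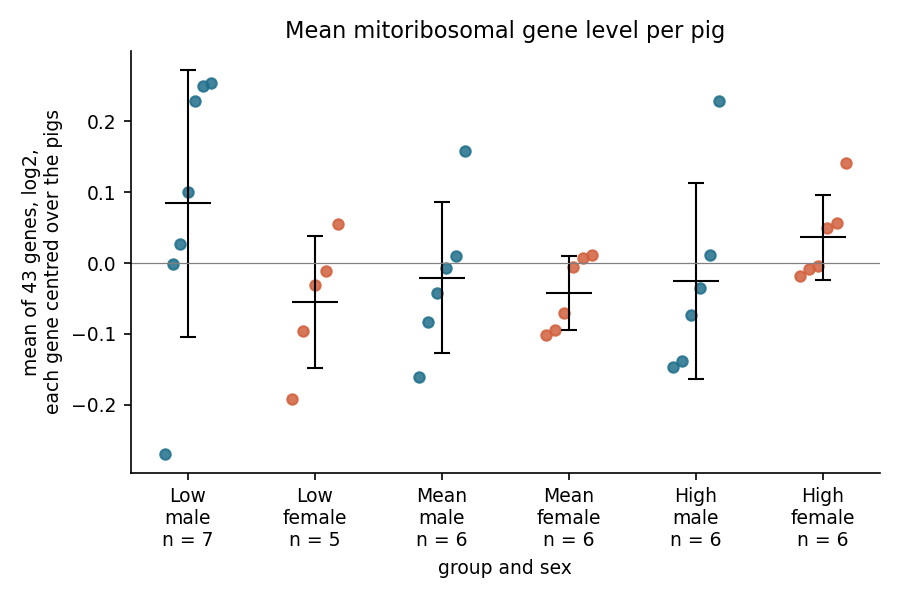
Mean log2 level of the 43 genes in each pig, with each gene centred over the 36 pigs, by group and sex. Points are pigs, spread sideways for legibility, and black bars give the mean and SD of each class, from 0.08 ± 0.19 in Low males to -0.05 ± 0.09 in Low females. The lowest point, at -0.27, is a Low male.

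The genes of the set varied together. After the group and sex terms the median Pearson's correlation over the 903 gene pairs was 0.30 across the 36 pigs (jackknife SE 0.06), and 92.5% of the pairs were above 0. Over all pairs of the 12253 genes the median was -0.00, and 49.6% were above 0. The pigs' libraries and their scaling are shared by all genes, so these values are given as a description. The first principal component of the 43 genes held 35.2% of their variance.

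Pairs within the large subunit had a median of 0.36, pairs within the small subunit 0.22, and pairs between them 0.27. The correlation was highest for MRPL46 with MRPS35 (0.79), followed by MRPL4 with MRPL54 (0.74) and MRPL24 with MRPL30 (0.72). In all, 63 of the 903 pairs were above 0.6. By group, the median was 0.45 in the Low, 0.14 in the Mean and 0.37 in the High pigs, each over 12 pigs. The difference between groups was not tested.

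MRPL4, MRPL2 and MRPL30 had the highest mean correlation with the other 42 genes, from 0.44 to 0.45. MRPL2 is part of the core around the peptidyl transferase centre. MRPS33, MRPL22 and MRPL49 had the lowest, 0.05, 0.12 and 0.12. MRPS33 was negatively correlated with 17 of the others, and most so with MRPL16 (-0.48). Its highest correlation was with MRPS6 (0.61). MRPS26, which stood lowest in High against Low, was also weakly tied to the rest, with a mean of 0.17 and its highest value with MRPS34 (0.54).

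**Figure D5:**
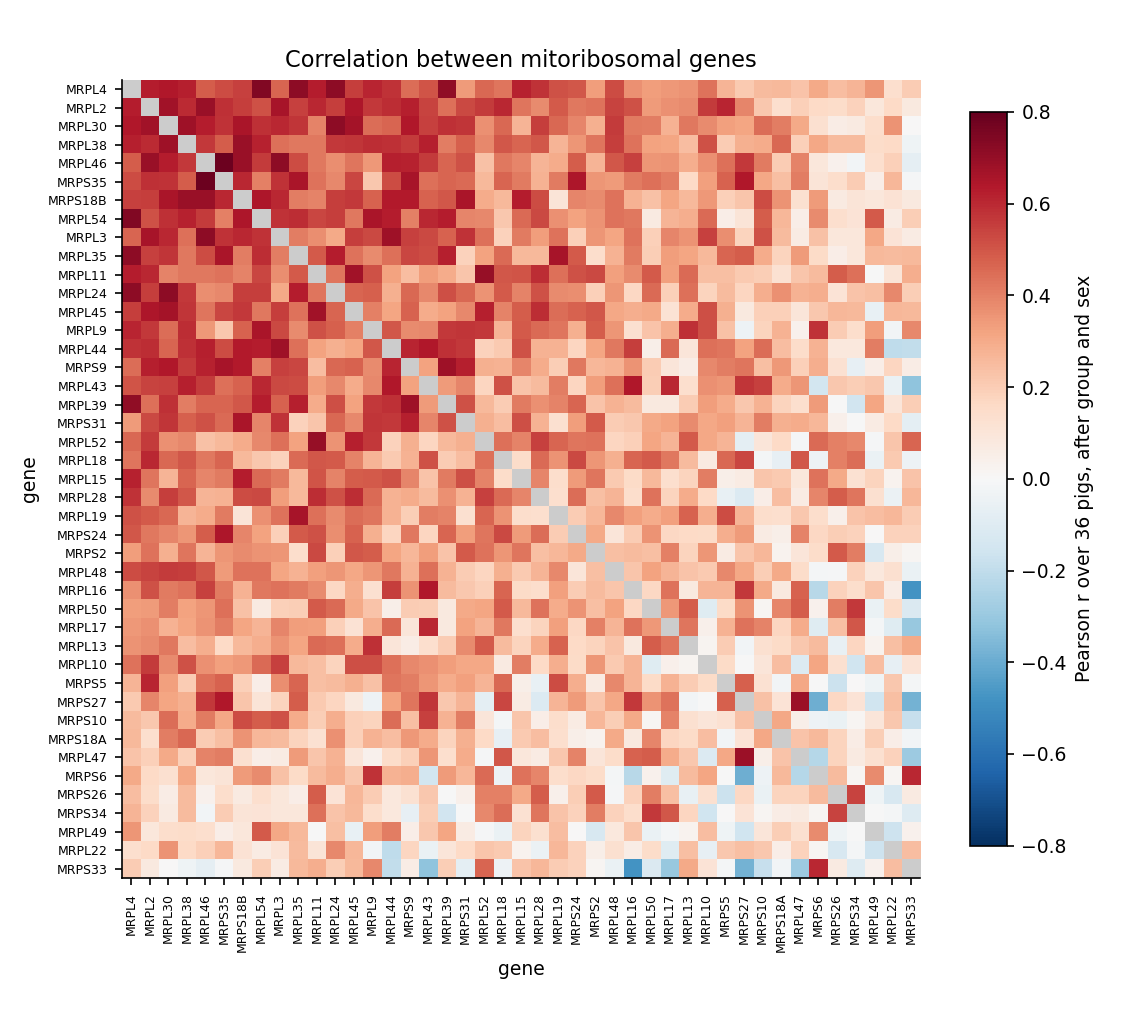
Pearson's correlation between each pair of the 43 genes over 36 pigs, after the group and sex terms, with genes ordered by their mean correlation with the others and the diagonal in grey. Red is positive and blue negative. MRPL4, MRPL2 and MRPL30, at the upper left, have no negative cell. MRPS33, at the end, has the most negative pairs of any gene, 17 of 68.

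Other genes of the same machinery were followed in lists written from general knowledge. None of their genes passed in High against Low. Over all genes 15.7% had an unadjusted p under 0.05 and 48.9% a difference below 0, and the counts of each list are read against these shares. Of the mitoribosomal proteins with other names, 3 had a row. Their differences were 0.13 for DAP3, a GTP-binding protein of the small subunit, -0.15 for PTCD3 and -0.11 for CHCHD1. The adjusted p-values were 0.581, 0.440 and 0.488. In Mean against Low the differences were 0.23 for DAP3, -0.20 for PTCD3 and -0.15 for CHCHD1. All 3 had an unadjusted p under 0.05 there in limma, where 13.4% of all genes did. None passed, with adjusted p-values of 0.351, 0.357 and 0.364. Of 12 genes for assembly of the mitoribosome, 3 were above 0 and 9 below in High against Low, with a median of -0.04. Among them 1 had an unadjusted p under 0.05. That gene was MRM1, an rRNA methyltransferase, with a difference of -0.48 (SE 0.21, adjusted p = 0.265).

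The list of 12 genes of mitochondrial translation had 5 genes above 0 in High against Low and a median of -0.00. It held translation factors and also OXA1L, MTFMT, LRPPRC and SLIRP, which are not translation factors themselves. The elongation factor TUFM had 837 ± 231 normalised counts in the Low and 751 ± 89.7 in the High pigs (SD, n = 12 each), and its difference was -0.09 (SE 0.11, adjusted p = 0.755). GFM2, which recycles the ribosome after translation, was the gene of this list with an unadjusted p under 0.05, at 0.33 (SE 0.16, adjusted p = 0.295). The 14 mitochondrial aminoacyl-tRNA synthetases had 8 genes above 0 and a median of 0.03. RARS2, which charges arginine tRNA, had -0.19 (SE 0.07, adjusted p = 0.177).

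The transcripts that the mitochondrial ribosome translates were measured as well. All 13 mRNAs of the mitochondrial genome had a row, with 8 above 0, a median of 0.03 and 0 at an unadjusted p under 0.05 in High against Low. COX1, the catalytic subunit of cytochrome c oxidase, had the highest estimate, 0.27 (SE 0.19, adjusted p = 0.522). In the interaction of sex with group, all 13 were below 0, with a median of -0.33, and 0 had an unadjusted p under 0.05. These mRNAs come from long shared transcripts and are not 13 independent results. The other lists were mixed in this interaction. Below 0 were 7 of the 12 assembly genes, 8 of the 12 translation genes and 10 of the 14 synthetases (medians -0.08, -0.13 and -0.12). So were 2 of the 3 mitoribosomal proteins of other names (-0.15), 3 of the 5 genes of transcription and replication (-0.02) and 2 of the 6 regulating factors (0.03).

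Of 5 genes that transcribe or replicate mitochondrial DNA, 3 were above 0 in High against Low with a median of 0.05. These were TEFM, which acts in transcription, and POLG and TWNK, the polymerase and helicase of replication. TFB2M and MTERF1, both of transcription, were below 0. Of 6 factors known for regulating nuclear genes of mitochondria, 1 was above 0, namely ESRRA at 0.08 (adjusted p = 0.714). NRF1, which is known to bind promoters of such genes, had -0.08 (SE 0.08, adjusted p = 0.671). GABPB1, a subunit of GA-binding protein, had the smallest p of the list, with 165 ± 24.5 counts in the Low and 138 ± 19.2 in the High pigs and a difference of -0.24 (SE 0.09, adjusted p = 0.184).

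Across the pigs, the mean level of the 43 genes was correlated with that of other lists of the translation machinery, to different degrees. After the group and sex terms its Pearson's correlation over 36 pigs was 0.84 with the 12 translation genes (Spearman 0.78). It was 0.75 with the 14 aminoacyl-tRNA synthetases (Spearman 0.62) and 0.64 with the 13 mitochondrial mRNAs (Spearman 0.61). Without the 2 pigs farthest from the median of the list these were 0.76, 0.63 and 0.51. The relation to the mitochondrial mRNAs was 0.83 within the Low, -0.01 within the Mean and 0.68 within the High pigs, so it was close to 0 in the intermediate group. With the 12 assembly genes it was 0.64 (Spearman 0.54, and 0.47 without those pigs), with 0.82 in the Low, 0.68 in the Mean and 0.25 in the High pigs. It was 0.75 with the 3 mitoribosomal proteins of other names (Spearman 0.70), 0.27 with the 5 genes of mitochondrial transcription and replication (Spearman 0.33) and 0.09 with the 6 regulating factors (Spearman 0.07). These are descriptions over libraries that share their scaling. With the size factor itself the correlation was -0.30 (Spearman -0.27), and with the recovered reads 0.19 (Spearman 0.21). Within the groups these varied. With the size factor it was -0.51 in the Low, -0.36 in the Mean and -0.01 in the High pigs, and with the recovered reads 0.33, -0.69 and 0.39, respectively. The part of depth in the levels was not tested.

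With markers of macrophages the correlation was negative. The mean of the 43 genes had a correlation of -0.59 with the mean of the 5 macrophage markers that had a row, C1QA, FCER1G, MRC1, CSF1R and CD68 (Spearman -0.58, and -0.50 without the 2 farthest pigs). It was -0.63 within the Low, -0.69 within the Mean and -0.47 within the High pigs, and 41 of the 43 genes had a negative value. MRPL11, a protein of the stalk base, had the lowest, -0.61, and the exceptions were MRPL47 at 0.15 and MRPL22 at 0.10.

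The summed level of the 5 markers was 1688 to 8579 normalised counts in the Low pigs (median 2458), 2308 to 8315 in the Mean pigs (median 5311) and 3688 to 9564 in the High pigs (median 6213). All 5 were above 0 in High against Low with an unadjusted p under 0.05 and a median of 0.82, though none passed at an adjusted p of 0.05, and the lowest was 0.0942, for C1QA and FCER1G. None was at 0 in any pig. All 4 endothelial markers were below 0 (median -0.29), of which ESAM at -0.39 (adjusted p = 0.117) and PECAM1 at -0.26 (adjusted p = 0.181) had an unadjusted p under 0.05. Of the 4 adipocyte markers 3 were above 0 (median 0.12), and CIDEC, a lipid droplet protein, had 0.56 (SE 0.17, adjusted p = 0.0983). Of the 4 fibroblast or progenitor markers 3 were above 0 (median 0.28), as were both T or NK cell (0.74) and both red cell markers (0.83), while both skin markers (-0.63) and the 1 muscle marker (-0.05) were below 0. None of these passed. The part of cell content in the levels of the mitoribosomal genes was not tested.

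The adipocyte markers had a correlation of 0.45 with the mean of the 43 genes (Spearman 0.57), and 0.46, 0.15 and 0.64 within the Low, Mean and High pigs. Their mean level was -0.14 ± 0.41 in Low males, -0.15 ± 0.19 in High males, 0.00 ± 0.37 in Low females and 0.41 ± 0.21 in High females on the centred log2 scale. In the interaction of sex with group all 4 adipocyte markers were below 0, with a median of -0.40, as 42 of the 43 mitoribosomal genes were. Both T or NK cell markers (median -0.90) and both skin markers (-0.41) were below 0 as well, while all 4 fibroblast or progenitor markers (0.48) and both red cell markers (1.09) were above 0. Of the 5 macrophage markers 3 were above 0 (median 0.04), as were 3 of the 4 endothelial markers (0.26). The part of cell content in the pattern of the mitoribosomal genes was not tested. For the other cell types, the correlation was 0.25 with 4 endothelial and -0.34 with 4 fibroblast or progenitor markers. It was 0.05 with 2 T or NK cell, -0.25 with 2 red cell, 0.01 with 2 skin markers and -0.09 with 1 muscle marker. With the fibroblast or progenitor markers Spearman's coefficient was -0.46, and 37 of the 43 genes had a negative value. That correlation was -0.21 within the Low, -0.52 within the Mean and -0.45 within the High pigs.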

How the data were processed

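RNA-Seq was analysed from subcutaneous adipose tissue of 36 pigs. The submitters' notes and methods name STAR for mapping of the paired-end reads to Sscrofa 10.2, HTSeq for counting per gene, a filter on genes with few reads, DESeq for library size factors and voom for normalisation. The authors deposited log2 values. Their steps show that each is the log2 of the reads plus 0.5 over the size factor plus 1, times a constant, so that part of the depth stays in. Whole reads were recovered from these steps. In the least regular column 99.9% of the values came within 0.1 reads of a whole number. The smallest count per column was 6 or 7 reads.

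The reads plus 0.5 were divided by the whole size factor, and log2 values were fitted for all 12253 genes with limma 3.58.1 in R 4.3.3, with an intensity trend, empirical Bayes moderation, and group and sex as terms. Benjamini-Hochberg correction was over all genes at 0.05. The interaction of sex with group was a further term in a separate fit. Summaries used scipy 1.17.1, pandas 2.3.3 and numpy 2.4.6 under Python 3.11.15. Fits and recovery were tested on simulated data.

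Genes named in the text are the 12 members with the smallest p in High against Low, the 4 with the smallest p in each of Mean against Low, High against Mean, males against females and the interaction, the 3 at either end of level, SD and mean correlation, and the MRPS18 paralogs. Further genes are named as exceptions or to complete a count. The members and lists were chosen with earlier results of these data known. Gene lengths, positions and sequences were not used here. Libraries were taken as biological replicates, 1 per pig.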

Additional observations from a re-analysis of the deposited data

How the results depend on the processing

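In all alternatives run, 0 of the mitoribosomal genes passed at an adjusted p of 0.05 in any comparison they were run for. The alternatives were the values as deposited, subtraction of each pig's median, no sex term, no intensity trend, the lowest 25% of genes left out (42 of the 43 genes tested, without MRPL22), a pseudocount of 2 reads, voom weights, the Low and High pigs alone, males alone, females alone and each pig left out in turn. The last one was chosen for the interaction after the data had been seen. In High against Low the median difference ranged from -0.06 to 0.01 with pigs left out in turn, with 18 to 30 of the 43 genes below 0. In Mean against Low it ranged from -0.07 to -0.02, and in High against Mean from 0.01 to 0.05. In females alone 11 genes were below 0, with a median of 0.10, and in males alone 39, with a median of -0.09. Of the 43 genes, 15 turned direction in females alone, to values from 0.02 to 0.26, among them MRPL30 (0.26), MRPL28 (0.15), MRPL52 (0.0234) and MRPL3 (0.0202). In males alone 13 turned, to values from -0.14 to -0.00, among them MRPL54 (-0.14), MRPL24 (-0.09) and MRPL4 (-0.0639). The cause was not tested, and each of these fits holds fewer pigs. The number of genes with an unadjusted p under 0.05 in High against Mean was 1 on the deposited values (4.28% of all genes), 0 with pig medians subtracted (4.93%) and 0 to 3 with pigs left out (3.44% to 6.57%). In Mean against Low it was 2 to 5 with pigs left out (at most 16.4%), and 5 without Low male 2 (15.7%). The same number in High against Low was 3 in males alone (13.2%) and 5 in females alone (16.3%). The median correlation between genes was 0.30 with Spearman's coefficient and 0.31 on the deposited values. The number of genes called in High against Low over the whole table, 9 in the report, was 5 on the deposited values, 5 with the lowest 25% left out, 2 without the sex term, 17 with voom weights, 23 in Low and High pigs alone, 2 in males alone, 59 in females alone and 1 to 377 with pigs left out in turn, the highest without Low male 2 and the next, 258, without Low female 8. No paired analysis was possible because each pig belongs to 1 group and the labels number all pigs in 1 run, so that the numbers used here within a group, given in accession order, pair no pigs. MRPL22 had as few as 25 reads in a pig, so its spread is near its counting error.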
